A study of Mus musculus with 32 samples.

Results

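The transcripts described here are long RNAs on the chromatin of mouse embryonic stem cells that the authors listed as differing between wild-type (WT) cells and H1-TKO cells. They were chosen by the authors' listing for a changed cheRNA level and by their width: each is named for a gene with exactly 1 listed gene transcript, is 20 kb or wider, and carries no prefix for an intergenic, antisense, bidirectional or 5′ transcript. Of the 5723 listed transcripts, 741 met this rule. Chromosomes 9 and 11 were left out by the rule. The series compared WT mES cells with H1-TKO cells, a line without 3 genes of linker histone H1, both grown in serum with LIF, the cytokine that holds mouse stem cells undifferentiated. RNA of the insoluble chromatin pellet (cheRNA) was sequenced from 3 samples per genotype after removal of ribosomal RNA. MapR, which maps R-loops (RNA paired with 1 strand of the DNA helix), had 2 libraries per genotype made with an inactive RNase H fused to micrococcal nuclease (RNH) and 1 control library per genotype with the nuclease alone. The labels do not say whether replicates are separate cultures or whether the TKO line is 1 clone, so the spread between libraries may be technical.

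Linker histone H1 binds the nucleosome where DNA enters and leaves it, and helps neighbouring nucleosomes to pack. RNA on chromatin holds many unfinished transcripts that RNA polymerase II is still making, and in long genes these are mostly introns. R-loops form most readily behind the polymerase at starts rich in CG dinucleotides.

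The starts of 7 members are shown as examples, chosen after their values were seen. They are a strongly higher pair, a strongly lower pair, and 3 starts where R-loop peaks differed or were shared between the genotypes. Each run is the RefSeq promoter of GRCm38.p6, from 250 bases before the start to 50 bases after it, read 5′ to 3′ on the strand of the gene, with CG dinucleotides in capitals. Usp26 lies at chrX:51801184-51801483 (minus strand) and Pdcl2 at chr5:76331107-76331406 (minus strand), and both were among the highest in TKO cells.
Usp26: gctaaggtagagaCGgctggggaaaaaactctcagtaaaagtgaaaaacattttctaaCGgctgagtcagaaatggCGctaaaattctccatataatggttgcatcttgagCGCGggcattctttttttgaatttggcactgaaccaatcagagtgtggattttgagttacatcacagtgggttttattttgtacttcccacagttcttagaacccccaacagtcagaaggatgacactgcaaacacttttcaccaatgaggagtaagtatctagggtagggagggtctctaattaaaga
Pdcl2: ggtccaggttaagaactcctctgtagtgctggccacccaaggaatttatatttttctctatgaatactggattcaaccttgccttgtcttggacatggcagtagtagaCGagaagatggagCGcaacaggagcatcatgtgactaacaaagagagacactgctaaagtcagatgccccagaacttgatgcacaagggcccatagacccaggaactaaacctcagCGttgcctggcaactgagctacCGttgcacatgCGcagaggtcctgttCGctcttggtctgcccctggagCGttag
Susd1 lies at chr4:59438584-59438883 (minus strand) and Rin3 at chr12:102282824-102283123 (plus strand), and both were among the lowest in TKO cells.
Susd1: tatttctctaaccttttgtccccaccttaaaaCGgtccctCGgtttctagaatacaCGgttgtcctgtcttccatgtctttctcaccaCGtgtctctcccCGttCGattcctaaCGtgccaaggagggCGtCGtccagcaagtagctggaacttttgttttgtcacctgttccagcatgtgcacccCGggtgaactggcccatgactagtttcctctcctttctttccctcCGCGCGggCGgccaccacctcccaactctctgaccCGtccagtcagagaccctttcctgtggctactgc
Rin3: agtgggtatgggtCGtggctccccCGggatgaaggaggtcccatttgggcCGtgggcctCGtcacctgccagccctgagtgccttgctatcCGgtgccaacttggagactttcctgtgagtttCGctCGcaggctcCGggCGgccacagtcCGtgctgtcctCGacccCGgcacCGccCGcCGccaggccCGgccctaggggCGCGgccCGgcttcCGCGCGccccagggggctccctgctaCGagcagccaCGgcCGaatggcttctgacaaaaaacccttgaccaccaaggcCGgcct
Rab11fip5 at chr6:85374585-85374884 (minus strand) had an RNH peak within 1 kb of this start in both WT libraries and in neither TKO library. Rassf4 at chr6:116673787-116674086 (minus strand) had the reverse, and Znrf1 at chr8:111536390-111536689 (plus strand) had a peak in all 4 libraries.
Rab11fip5: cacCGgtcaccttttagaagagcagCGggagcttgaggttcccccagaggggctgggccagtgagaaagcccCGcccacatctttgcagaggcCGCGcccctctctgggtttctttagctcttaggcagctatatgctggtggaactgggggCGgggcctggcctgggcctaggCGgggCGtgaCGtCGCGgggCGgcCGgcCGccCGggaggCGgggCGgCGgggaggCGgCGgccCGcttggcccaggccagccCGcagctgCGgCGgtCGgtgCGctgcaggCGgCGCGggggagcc
Rassf4: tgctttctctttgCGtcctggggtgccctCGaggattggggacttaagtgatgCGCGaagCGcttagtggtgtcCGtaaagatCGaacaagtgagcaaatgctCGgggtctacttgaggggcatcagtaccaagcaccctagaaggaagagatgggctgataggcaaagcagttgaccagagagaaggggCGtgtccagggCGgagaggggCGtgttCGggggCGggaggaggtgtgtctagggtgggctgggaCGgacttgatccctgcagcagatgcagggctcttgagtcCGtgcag
Znrf1: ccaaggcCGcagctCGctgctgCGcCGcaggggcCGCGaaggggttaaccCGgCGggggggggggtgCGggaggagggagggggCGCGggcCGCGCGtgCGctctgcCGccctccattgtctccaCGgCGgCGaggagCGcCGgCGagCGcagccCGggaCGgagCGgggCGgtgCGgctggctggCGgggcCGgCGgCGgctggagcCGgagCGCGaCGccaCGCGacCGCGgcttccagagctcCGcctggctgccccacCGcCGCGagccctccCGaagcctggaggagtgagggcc
The Usp26 run holds 5 CG dinucleotides, Pdcl2 holds 7, Susd1 holds 15 and Rin3 holds 26. Rab11fip5 holds 29, Rassf4 holds 15 and Znrf1 holds 45.

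The cheRNA values come from the authors' deposited table, which holds 1 log2 fold change per transcript, no value per sample and no p-value. Every listed absolute log2 value is at least 1, so unchanged transcripts are not among the 5723, and all cheRNA values below are descriptions with no test and no replicate error. The file does not name the numerator. The transcripts of Hist1h1c, Hist1h1d and Hist1h1e, the genes known to be deleted in H1-TKO cells, were positive as deposited, so the sign of every value was turned to give TKO over WT; this sign is inferred from those genes. After the turn they lay at -3.61, -5.02 and -4.83 in the authors' deposited table. None of 7 stem cell identity genes (Pou5f1, Sox2, Nanog, Zfp42, Esrrb, Klf4, Tfcp2l1) had a listed gene transcript, which leaves their level in either genotype unread. In bulk RNA, fewer cells of a type and less RNA per cell cannot be told apart. The 4 RNH peak lists held 19263 and 5470 peaks for WT replicates 1 and 2, and 21519 and 5049 for TKO, after peaks over a control peak and chromosomes 9 and 11 were left out. The control lists held 501 and 512 peaks, and the sequencing depth of all libraries is unknown.

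Most members followed a protein-coding gene from its start over most of its length. Of the 741, 740 carried a gene name found in the GENCODE M21 annotation, 739 of these genes were protein-coding, and all 740 transcripts lay on the strand of their gene. The transcript started within 1 kb of an annotated start of its gene in 94.5% of members, against 83.3% of the 630 single gene transcripts under 20 kb and 24.7% of the 1071 pieces of genes listed in several pieces. At least 90% of the gene was covered in 570 members (77.0%), and the others covered a smaller part. The share was 56.6% of the shorter single gene transcripts and 39.9% of all listed gene transcripts of any chromosome. The median share of a member that was annotated exon was 8.97%, so most of the listed length was intron or downstream sequence. It was 23.0% in the shorter single gene transcripts and 7.95% in all listed gene transcripts, so a low share is not particular to members.

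Many members ran on beyond the gene. In 77.0% the transcript ended more than 1 kb past the annotated 3′ end, in 68.4% of the higher and 81.4% of the lower members. Among single gene transcripts under 20 kb it was 44.8%, and among all listed gene transcripts 38.9%. The width that chose the members includes this extension, so these shares are a description. The extension was over 10 kb in 162 members and over 20 kb in 54. Sall1, a zinc-finger factor of kidney and neural development, was the longest: its 16.9 kb gene was followed by 100 kb of listed transcript. Klf5, a factor that helps hold the stem cell state, had 94.8 kb of transcript past a 16.3 kb gene. Zic5, a factor of the neural plate, ran 47.0 kb past its 8.88 kb gene, and Cdkn1b, an inhibitor of cyclin-dependent kinases, ran 43.9 kb past its 5.11 kb gene. Because of such extensions, 79 members (10.7%) met the 20 kb rule although their gene is shorter.

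Of the 741 members, 250 (33.7%) were higher in TKO cells and 491 (66.3%) were lower. Members are not independent draws, so no interval is given. Among all listed transcripts 60.1% were higher and 39.9% lower, and among all listed gene transcripts 45.0% were higher and 55.0% lower. Both of these sets include chromosomes 9 and 11, which the members do not. With those chromosomes kept in, 35.2% of the 903 transcripts that met the rest of the rule were higher. Members therefore leaned to the lower side where the table as a whole leaned to the higher side. The shorter single gene transcripts were 57.1% higher, and the pieces 43.3% higher.

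Direction went with width inside the set. Of the 180 members of 20 to 30 kb, 48.9% were higher in the authors' deposited table, and of the 182 of 30 to 50 kb, 43.4%. The share was 29.8% of 198 members at 50 to 100 kb, 12.2% of 139 at 100 to 200 kb and 16.7% of 42 at 200 kb or more. The median width was 37720 bp for the higher and 62217 bp for the lower members. Outside chromosome 6 the same widths gave 52.3%, 46%, 32.3%, 13.7% and 17.9%. Base composition also moved with width: the median GC content was 47.2% in the narrowest and 42.2% in the widest class, and its part in the pattern was not tested. At the threshold, the 3 transcripts just outside were Gpr20 (19788 bp), Asb13 (19901 bp) and Kdm5d (19923 bp), at log2 -1.05, -1.26 and 3.43 in the authors' deposited table. The 3 just inside were Sycp2l (20068 bp), Nrxn2 (20079 bp) and Phyhd1 (20229 bp), at 1.77, 1.06 and -1.44.

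**Figure D1:**
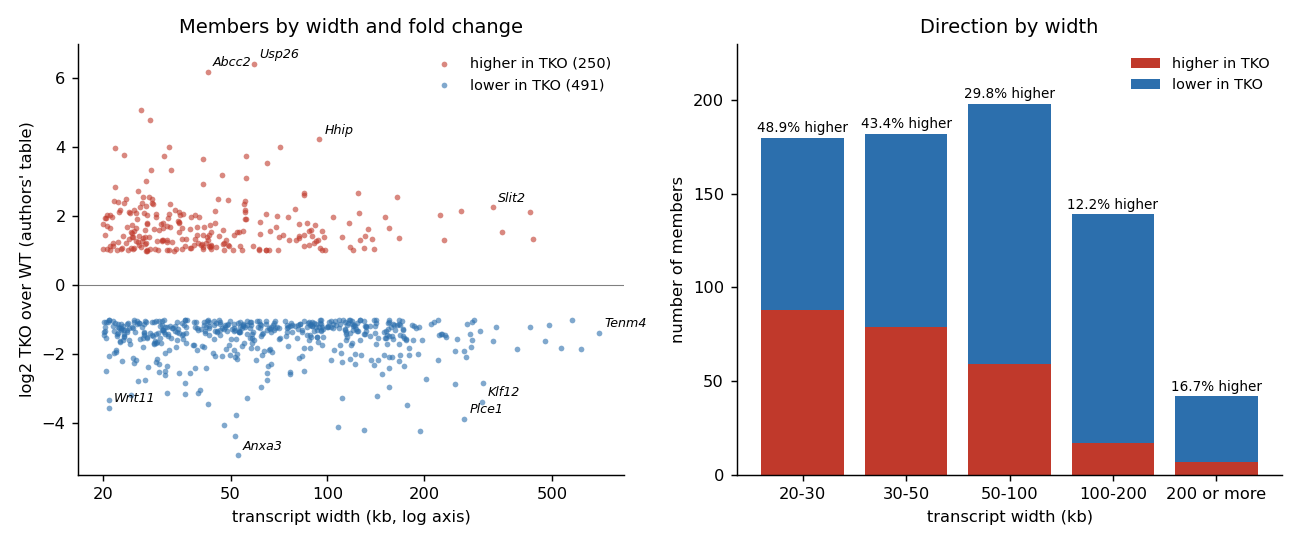
Left, each point is a member, with the transcript width in kb on a log axis and the authors' log2 TKO over WT on the other axis; values between -1 and 1 are not listed. Right, bars count members higher and lower in TKO cells per width class, and the share of higher members was 48.9% at 20 to 30 kb and 12.2% at 100 to 200 kb.

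Fold changes of the members were moderate. The median log2 in the authors' deposited table was 1.55 for the higher and -1.35 for the lower members, against 2.24 and -1.74 among all listed transcripts. At least a 4-fold difference was listed for 69 higher members (27.6%) and 82 lower members (16.7%), while 50.8% of all listed transcripts passed that fold. At 16-fold or more, 6 members were higher and 6 lower.

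The 10 highest members were between log2 3.76 and 6.43. Usp26, a deubiquitinase known from testis, spanned chrX:51742020-51801061 (mm10) and was at log2 6.43 in the authors' deposited table. Abcc2, an exporter of conjugated anions in liver cells, was at 6.19 (chr19:43798330-43840769). Pdcl2, a phosducin-like protein of male germ cells, was at 5.07 (chr5:76304794-76331026), and A630023A22Rik at 4.80. Hhip, which binds and inhibits hedgehog ligands, was at 4.23 over 94099 bp. Stmn2, a tubulin-binding protein of neurons, and Kctd19, a protein of meiotic cells, were both at 4.00 in the authors' deposited table. Foxn4, a factor of retina and spinal cord, was at 3.98, 1700010I14Rik at 3.77 and Ifitm7 at 3.76. Ifitm7 belongs to a family of similar interferon-induced membrane proteins, and the sources used here do not give the authors' treatment of reads shared between such copies.

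The 10 lowest members were between log2 -4.92 and -3.47. Anxa3, a calcium-dependent membrane-binding annexin, was at log2 -4.92 in the authors' deposited table (chr5:96793518-96846120). Ttc39a was at -4.36, Pdzd2, a large PDZ-domain protein, at -4.23 over 193992 bp, and Susd1 at -4.20 over 129812 bp. Rin3, an activator of the endosomal GTPase Rab5, was at -4.10 and Pla2g7, the plasma platelet-activating factor hydrolase, at -4.04. Plce1, a phospholipase C activated by Ras, was at -3.86 over 267055 bp and Capn2, the large subunit of m-calpain, at -3.74. Wnt11, a secreted Wnt ligand, was at -3.55 over 20851 bp, and Colec12, a scavenger receptor, at -3.47 in the authors' deposited table.

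The widest members in each direction had smaller fold changes than these. Tenm4, a teneurin adhesion protein, was the widest at 702102 bp (chr7:96209851-96911952) with log2 -1.38 in the authors' deposited table. Lpp, a focal adhesion protein, spanned 616312 bp at -1.83, and Rabgap1l-Gpr52 spanned 575843 bp at -1.02. Ptprk, a receptor phosphatase, spanned 532456 bp at -1.83 and Rims2, a scaffold of synaptic release sites, 491006 bp at -1.15. Among higher members the widest were Fhod3, a formin of heart muscle (435910 bp, 1.35), and Glis3, a factor of pancreas and kidney (427360 bp, 2.13). They were followed by Gpc3, a glypican that restrains growth (348636 bp, 1.54), Slit2, a repellent for growing axons (327232 bp, 2.27), and Dnah8, a sperm tail dynein (259881 bp, 2.16).

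Gene groups were read against coding genes of 20 kb or more in the annotation, of which 7.4% had a member in either direction, 2.39% a higher and 5.01% a lower one. These shares describe the lists and carry no test. The lists were made from patterns of gene names, so each leaves out some genes of its kind and can hold others. Of the 159 such genes in the transcription factor list, 25 had a member, 4 higher and 21 lower. With factors of this list whose gene is shorter, the members came to 7 higher and 24 lower. Glis3 (2.13) and Zfp423 (-2.82) are factors outside this list. Foxn4 (3.98) and Zic5 (3.75) led the higher factors of this list in the authors' deposited table. Lef1, a Wnt effector, was at 1.81, Zeb1, a repressor of epithelial genes, at 1.66 and Pax6, the eye and forebrain factor, at 1.52. Lower were Klf12 (-3.38), Foxp4 (-2.29) and Klf5 (-2.23), and beyond the named-gene rule also Tcf7l1, Tcf7l2 and Tead4 at -1.47, -1.57 and -1.50. Tcf7l1 and Tcf7l2 are, like Lef1, DNA-binding partners of beta-catenin. Of the 24 lower factors, 4, Tcf7l1 among them, lay in a segment of chromosome 6 described further on, where nearly all members were lower.

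Genes of axon guidance had a member in 9 of 47, 2 higher and 7 lower. Slit2 was at 2.27 and Sema3c, a secreted semaphorin, at 1.14 in the authors' deposited table. The receptors were on the lower side: Epha2 was at -1.88, Plxna1 at -1.56, Unc5b at -1.55, Plxnc1 at -1.45, Plxnb2 at -1.42 and Ephb2 at -1.23, and the membrane-bound ligand Efna5 was at -1.58. Both higher members of this list are secreted ligands, and 1 of the 7 lower ones, Plxna1, lay in the chromosome 6 segment.

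Matrix and integrin genes had a member in 16 of 101, and with genes under 20 kb 6 members were higher and 11 lower. Among the lower ones were laminin chains and integrins: Lama5 was at -1.53 and Lamc1 at -1.09 in the authors' deposited table. The integrin subunits Itga5, Itgb1 and Itga6 were at -1.79, -1.28 and -1.22. Hspg2, the basement membrane proteoglycan perlecan, was at -1.22. The 6 higher ones were Col9a2 at 2.45, Ncan at 2.04, Gpc3 at 1.54, Adamts10 and Acan at 1.27 and Col2a1 at 1.06 in the authors' deposited table.

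Growth signalling had a member in 9 of 96 genes, with 4 higher and 7 lower members when shorter genes are counted. Hhip (4.23), the neurotrophin receptor Ntrk2 (2.55), Dkk3 (1.74) and the stem cell factor receptor Kit (1.44) were higher in the authors' deposited table. Wnt11 (-3.55), the ErbB ligand Nrg1 (-3.27), the secreted Wnt antagonist Sfrp4 (-2.17), the receptor signalling inhibitor Spry4 (-1.96) and Wnt7b (-1.89) were lower. The listed transcripts of Ntrk2 and Nrg1 covered 8.9% and 10.4% of their gene, so they stand for a part of it.

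Chromatin regulators had a member in 16 of 142 genes, and 5 members were higher and 13 lower. The 13 include Mllt4 (-1.16), or afadin, a protein of cell junctions that the name pattern took in. Hmga2, an architectural protein of stem cells, was at -2.27, Tet3, an oxidase of methylated cytosine, at -2.06 and Dnmt3l, a cofactor of DNA methylation, at -1.07 in the authors' deposited table. The Polycomb members Rnf2 and Jarid2 were at -1.07 and -1.06. L3mbtl1, a reader of methylated histones, was at 2.06 and Phf11b at 1.95. Phf11b and the neighbouring member Phf11d are near copies, so their reads may be shared.

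Further groups held from 4.08% to 12.5% of their genes, beside the 7.4% of all such genes. Ion channels had a member in 12 of 158 genes of the list, 6 higher and 6 lower. The channel-like Tmc3 was at 2.49 and the potassium channel subunit Kcnab2 at 1.59. Kcng3 was at -2.49 and the mechanosensitive Piezo1 at -1.76 in the authors' deposited table. Other channel genes or subunits lie outside this list, so its 6 and 6 do not count all channels. Lower ones include Tmem38b (-1.21), Orai1 (-1.20), Lrrc8a (-1.44) and Cacna2d1 (-1.51). Higher ones include Hvcn1 (1.13), Tmem63c (1.02) and Catsperd (1.20). Apart from Tmem38b, they were named after their values were seen. Solute carriers had one in 16 of 208, with 9 higher and 10 lower members in all, from the bicarbonate transporter Slc4a5 (3.35) and Slc45a1 (2.18) to the proton exchanger Slc9a7 (-2.71) and the ascorbate transporter Slc23a1 (-2.28). Cytoskeleton and motor genes had one in 15 of 120, 7 higher and 8 lower; Syne3, which links nucleus and cytoskeleton, was at 2.62 and the actin nucleator Fmn2 at -1.60. Regulators of small GTPases had one in 18 of 159, with 6 higher and 13 lower members in the list. Among them were Tiam2 at 2.22, Rasgrp1 at 2.05, Rapgef3 at -2.37 and Arhgef5 at -2.14 in the authors' deposited table. By its name patterns this list counts Stard10, a lipid-transfer protein, and leaves out Rin3 (-4.10).

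Cyclic nucleotide, phospholipase and kinase genes had a member in 10 of 121, 1 higher (the phosphatase subunit Ppp2r2c, 1.80) and 9 lower, led by Plce1 and by Camk2d, a calcium-dependent kinase, at -2.86 in the authors' deposited table. Cadherins had 3 of 37: Cdh2, N-cadherin, was at 2.04, and the large relatives Fat1 and Celsr1 were at -1.68 and -1.53. The desmosomal cadherin Dsg2 (-1.72) is outside this list. Neural adhesion genes had 5 of 57, with Nrxn2 at 1.06 and the latrophilin Adgrl2 at -3.20. Of 49 genes of m6A marking and RNA decay, 2 had a member, both lower: Dis3, a catalytic subunit of the RNA exosome, at -2.39 and Igf2bp3, a binder of m6A-marked RNA, at -1.08 in the authors' deposited table. Among pluripotency genes Klf5, Prdm1 (-1.62) and Dnmt3l were lower and Sall1 (1.11) was higher. Of the markers of other cell types, Pax6, of 3 neuroectoderm markers of 20 kb or more, was a member. None of the 9 endoderm, 2 mesoderm, 3 trophoblast and 9 fibroblast markers of that length was one, which are too few to read at 7.4%. Outside the set, these 4 lists had 11, 3, 4 and 1 listed gene transcripts. The lists covered 172 members, and 569 were in none.

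**Figure D2:**
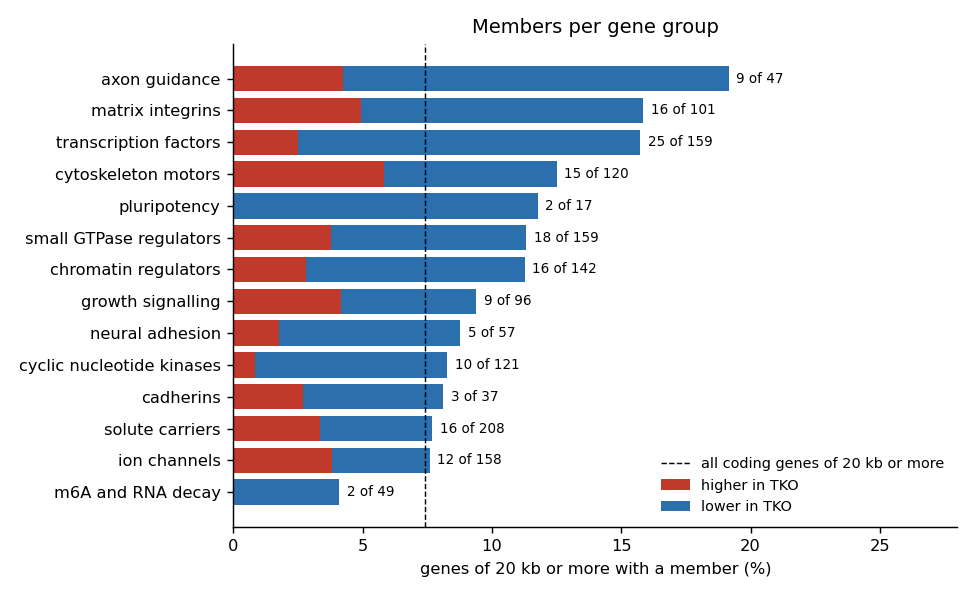
Bars give, for each list of gene names, the percentage of its coding genes of 20 kb or more with a member. They are split into higher and lower in TKO cells, with the counts beside them. The dashed line is the 7.4% of all coding genes of this length; axon guidance had 9 of 47 and RNA decay with m6A 2 of 49.

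Listed non-coding transcripts next to or within a member mostly had its direction. All 20 antisense transcripts within genes that were named for a higher member were higher too, as were all 14 bidirectional transcripts and all 15 transcripts at the 5′ side. Intergenic transcripts named for higher members were higher in 84 cases and lower in 2. Among all listed transcripts 60.1% were higher. Of all intergenic ones, 1420 of 1898 outside the chromosome 6 segment were higher, and 14 of 39 within it. The shares over all antisense, bidirectional and 5′ transcripts were not counted. For lower members the 5′ transcripts were lower in 43 and higher in 1, and the bidirectional ones lower in 11 and higher in 1. Antisense and intergenic transcripts of lower members were more mixed, with 20 lower and 10 higher, and 80 lower and 39 higher. Of all listed transcripts 39.9% were lower, and of intergenic ones outside the chromosome 6 segment 478 of 1898. All of these come from the same contrast as the rule and are a description. Reads of overlapping transcripts on 1 strand cannot be told apart.

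Of the 14 members with at least 2 such transcripts over them, 7 were higher, and all of their transcripts were higher too. Of the 7 lower ones, 5 had lower transcripts throughout and 2 had at least 1 higher transcript. Socs2, an inhibitor of cytokine signalling at -1.41 in the authors' deposited table, had 1 higher and 1 lower intergenic transcript. Ccdc141, at -1.28, had 2 higher antisense transcripts. Sall1 had 3 intergenic transcripts along its long 3′ extension, all higher like Sall1 itself. The zinc-finger gene Zfp74 and Upk3bl each had 1 antisense and 1 intergenic transcript, all higher like both genes at 1.36 and 1.07 in the authors' deposited table. Tmem38b, an intracellular cation channel, was at -1.21 with 2 lower antisense transcripts, and Zfp704 at -1.01 with 1 lower antisense and 1 lower intergenic transcript.

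Consecutive members along a chromosome shared a direction somewhat more often than the shares of both directions give, mainly on chromosome 6. Of 722 pairs of consecutive members, 444 (61.5%) had the same direction, where the shares of both directions alone give 55.3%. Without chromosome 6 it was 57.6% of 609 pairs against 54.0%, which is near that share. Those pairs still include a run of 14 lower members on chromosome 14. Chromosome 6 held 114 members, 25 higher and 89 lower. Of its coding genes of 20 kb or more, 18.0 per 100 had a member, while the other chromosomes had between 1.10 and 8.22.

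Most members of chromosome 6 lay in 1 segment of 50 Mb, chr6:50000001-100000000 (mm10), whose limits were chosen after the values were seen. It held 74 members, 66 of them from its 166 coding genes of 20 kb or more, and 73 were lower. The exception was Slc4a5, at 3.35. The lower members followed each other without a break from Hibadh to Dctn1 (32 members over 30.7 Mb) and, past Slc4a5, from Mob1a to Foxp1 (41 members over 15.7 Mb). Elsewhere on the chromosome 24 members were higher and 16 lower.

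The lower members of the segment had similar and moderate values. Their log2 in the authors' deposited table reached down to -2.59, with a median of -1.30 and an SD over members of 0.34, against an SD of 0.64 for the 418 lower members elsewhere. A 4-fold difference was listed for 6 of them (8.22%), against 76 (18.2%) elsewhere. They include Hmces, a shield of abasic DNA sites (-2.59), Tet3 (-2.06), the glycolytic enzyme Hk2 (-1.90), the helicase subunit Mcm2 (-1.20), the AAA-ATPase Ruvbl1 (-1.33), the endosomal GTPase Rab7 (-1.35) and the chaperonin subunit Cct7 (-1.05). They also include the developmental factors Mitf (-1.27) and Foxp1 (-1.30) and the matrix protease Adamts9 (-2.31).

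Other listed transcripts of the segment shared the direction. Gene transcripts that are no members were lower in 56 and higher in 8, and intergenic ones lower in 25 and higher in 14, where outside the segment 478 were lower and 1420 higher. On the rest of chromosome 6, 252 of 321 listed transcripts were higher. The next longest run lay on chromosome 14, where 14 lower members followed each other from Ptk2b to Uchl3 with a median of -2.17 in the authors' deposited table.

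MapR, which the rule did not use, also differed in the chromosome 6 segment and in part of chromosome 14. The chromosome 6 segment held 2.25% and 1.88% of the RNH peaks of the WT libraries (433 and 103 peaks) and 1.21% and 0.792% of those of the TKO libraries (260 and 40 peaks). Both TKO libraries lay below both WT libraries. The rest of the chromosome went the other way, with 3.79% and 3.82% of WT and 5.24% and 5.23% of TKO peaks. Peaks of the segment outside any member showed the same order, at 1.80% and 1.48% in WT and 0.957% and 0.713% in TKO cells. The control lists had 5 WT and 7 TKO peaks there. The segment was picked for its cheRNA values after MapR peaks had also been seen, so these values carry no test.

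The difference was larger on chromosome 14 from 90 to 100 Mb, which lies within the run of 14 lower members and meets 6 members, all lower, among them Dis3, Klf5 and Klf12. It held 1.30% and 3.07% of the WT peaks (251 and 168 peaks) and 0.163% and 0.119% of the TKO peaks (35 and 6 peaks). Outside its members it held 234 and 161 WT and 27 and 5 TKO peaks, so most of the difference lay outside them. This stretch, too, was picked after its values were seen.

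**Figure D3:**
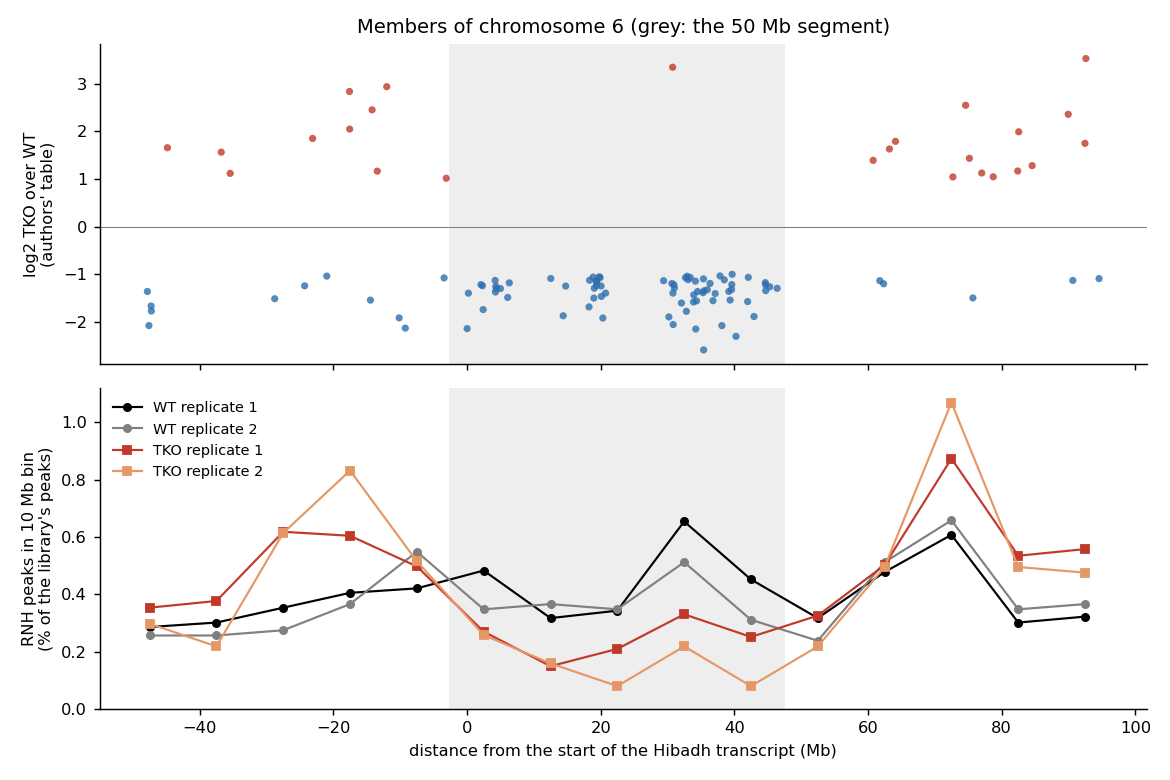
Top, the authors' log2 TKO over WT of each chromosome 6 member by distance in Mb from the start of the Hibadh transcript; within the grey 50 Mb segment 73 of 74 members are lower. Bottom, RNH peaks per 10 Mb bin as a percentage of all peaks of each library, where both TKO libraries lie below both WT libraries in the segment as a whole.

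Over the whole set, RNH peaks were compared between genotypes by the share of each library's peaks that met a member. In higher members this was 1.05% and 0.585% in WT and 1.14% and 1.11% in TKO cells. Both TKO libraries lay above both WT libraries, by 0.30 percentage points on average (two-sided exact permutation test of 2 against 2 libraries, p = 0.33, the smallest this design allows). In lower members it was 3.30% and 2.91% in WT and 2.75% and 2.00% in TKO cells. Both TKO libraries lay below both WT libraries, by -0.73 points on average (exact permutation p = 0.33). For higher members this separation was lost in 4 of the 8 alternatives that keep all 4 libraries, and at a -log10 q of at least 5 the difference was 0.012 points. For lower members it was lost in 1 of 8, with chromosomes 9 and 11 kept in. Leaving out WT replicate 2 brought the first difference to 0.070 and leaving out WT replicate 1 to 0.54 points. Leaving out TKO replicate 2 or TKO replicate 1 brought the second to -0.36 or -1.10 points. Without the chromosome 6 segment, the difference in lower members was smaller, at -0.50 points. The shares were then 2.92% and 2.55% in WT and 2.53% and 1.94% in TKO cells.

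The ratio of peaks in higher to peaks in lower members within a library does not depend on the length of its list in the same way. Its log2 was 0.92 greater in TKO than in WT libraries (-1.06 against -1.98; exact permutation p = 0.33), and 0.58 greater without WT replicate 2. Without the chromosome 6 segment the difference was 0.81. The direction was that of the cheRNA in each of 13 alternatives, from 0.58 to 1.25, but a design of 2 against 2 cannot reach 0.05. The alternatives reuse the same 4 libraries, and 1 of them, the replicate block, leaves the difference unchanged by construction. They are therefore not separate support. As a density, higher members carried 14.5 and 2.28 peaks per Mb in WT and 17.5 and 3.99 in TKO cells, and lower members 14.3 and 3.58 against 13.3 and 2.28. Control peaks met 0 WT and 1 TKO higher members, and 10 WT and 12 TKO lower members.

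**Figure D4:**
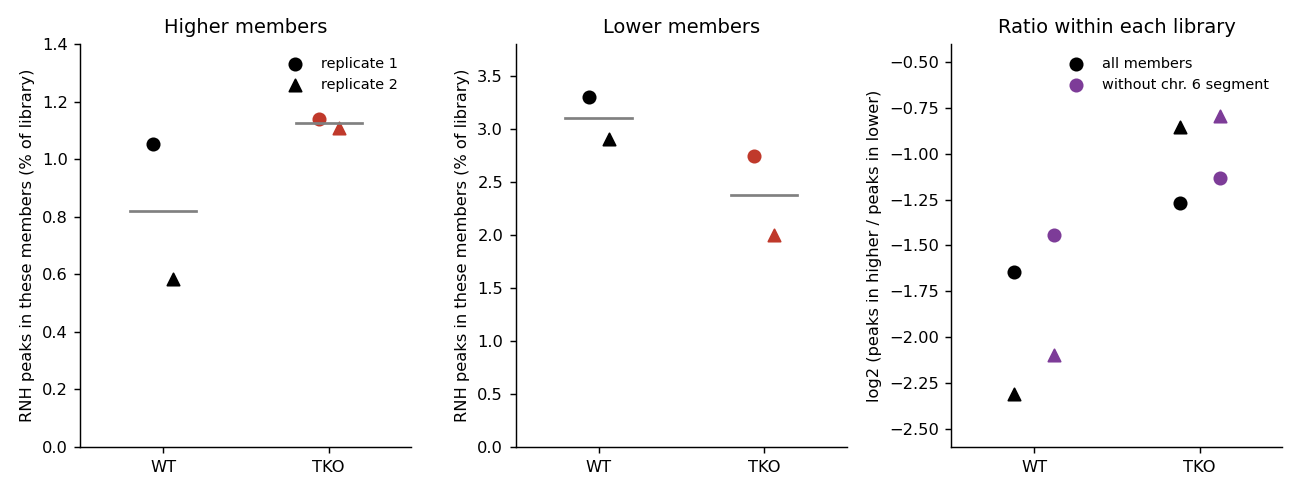
Left and middle, the percentage of each RNH library's peaks in members higher and lower in TKO cells, with circles and triangles for replicates 1 and 2 and grey lines for the means of 2 libraries. Right, log2 of peaks in higher over peaks in lower members per library, with all members (-1.98 on average in WT and -1.06 in TKO) and without the chromosome 6 segment.

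RNH peaks met 68.4% and 20.9% of members in the WT libraries and 70.7% and 18.8% in the TKO libraries, where they met 33.6%, 9.26%, 35.1% and 10.0% of all listed transcripts, most of which are shorter. Among single members, 53 (7.15%) had an RNH peak in all 4 libraries and 128 (17.3%) in none. These shares were not counted over all listed transcripts or all coding genes, so they are no trait of members. In 6 of the 741 members both TKO libraries had more peaks than both WT libraries, where 0.804% of all listed transcripts and 1.46% of coding genes of 20 kb or more did. In 16 of the 741 both had fewer, where 0.996% of listed transcripts and 1.13% of those genes did. Of the 16, 13 were lower and 3 higher in cheRNA, and of the 6, 2 were lower and 4 higher, where 66.3% of all members were lower.

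Members with more peaks in TKO cells included Clgn, a chaperone of spermatids, with 0 and 0 in WT and 1 and 1 in TKO libraries at log2 3.67 in the authors' deposited table. The p53 relative Trp73, at 1.18, had the same peak numbers. Direction did not always match: Nfkb1, the p105 precursor of NF-kappa-B, was at -1.72 with 0 and 0 peaks in WT and 4 and 1 in TKO libraries. Colec12 had 0 and 0 against 1 and 1, and the kinase Map4k3, at -1.22, had 1 and 0 against 4 and 1.

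Fewer peaks in TKO cells were found at Ephb2, an ephrin receptor, with 4 and 1 in WT and 0 and 0 in TKO libraries. Gng12, a G protein subunit (-1.88), and Unc5b, a netrin receptor, each had 3 and 1 against 0 and 0. The innate immune sensor Nod1 (-1.75) had 4 and 0, and Capn2 3 and 0, against 0 and 0. Klf5, one of the 16, had 8 and 5 peaks in WT and 3 and 0 in TKO libraries, and its neighbour Klf12 6 and 1 against 1 and 0. Gng12 and Nod1 lie in the chromosome 6 segment, and Klf5 and Klf12 in the stretch of chromosome 14, where RNH peaks outside members also took a smaller share in TKO cells. Foxn4, at log2 3.98, had 1 and 1 against 0 and 0 peaks over its transcript, but a peak within 1 kb of an annotated start in both WT libraries and in TKO replicate 1. Replicate 2 lists were shorter than replicate 1 lists in both genotypes, and 0 in a short list is not absence.

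An RNH peak within 1 kb of an annotated start was found for 55.6% and 11.2% of higher members in WT and 63.6% and 19.2% in TKO libraries. For lower members it was 66.9% and 17.1% against 70.4% and 15.1%. All coding genes of 20 kb or more had 57.4% and 14.1% in WT and 63.9% and 17.3% in TKO libraries. A peak at the start in all 4 libraries was found for 47 members (6.34%) and for 8.25% of all such genes. The difference was 8.00 points for higher members (exact permutation p = 0.67) and 0.71 points for lower members (exact permutation p = 1), both within the spread between replicates, which differ in list length. Within replicate 1 and within replicate 2 the higher members differed by 8.00 points each.

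RefSeq promoters were matched to 577 members by name, and 514 of them lay within 1 kb of the start of the listed transcript. Their median number of CG dinucleotides was 21 in 300 bases, against 7 in all 32851 RefSeq promoters. Those promoters were not limited to long or protein-coding genes, so this gap cannot be read as particular to the members. Higher members had 18 and lower members 22. Here a peak at the start is one within 1 kb of the RefSeq start alone, so a member with a peak at another annotated start can count as having none. Members with no such peak in any library (137) had a median of 15, and those with a peak in all 4 (26) had 25.5, with 22 to 22.5 at 1 to 3 libraries. Members with no peak split further, at 9 for the 53 higher and 17 for the 84 lower ones.

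Usp26 and Pdcl2, with 5 and 7 CG dinucleotides, had no RNH peak at that start in any library, and the 11 promoters of members at least 8-fold higher had a median of 7. Susd1 and Rin3 had a peak in 1 library each, TKO replicate 1 and WT replicate 1, and the 15 promoters at least 8-fold lower had a median of 15. Rab11fip5, with 29, lay above and Rassf4, with 15, below the median of members. Peaks in 1 genotype only were rare: 7 of the 514 had a peak in both WT and neither TKO library, 6 of them lower members. The reverse was found for 4, 2 higher and 2 lower. Of the 514 promoters, 348 belonged to lower and 166 to higher members. How often all genes show these patterns was not counted, so the numbers say nothing particular of members.

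Short motifs were counted on both strands of the same 300 bases. GGGCGG, a core of Sp1-type sites that overlaps CG dinucleotides, occurred in 73.0% of member promoters and 35.7% of all promoters. TATAAA occurred in 7.78% and 13.6%, and CCAAT in 32.5% and 37.4%. All promoters again include those of short and non-coding genes, so these gaps cannot be read as particular to the members. GGGCGG was present in 65.1% of higher and 76.7% of lower members. A match is a description of the letters and not of a bound factor.

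**Figure D5:**
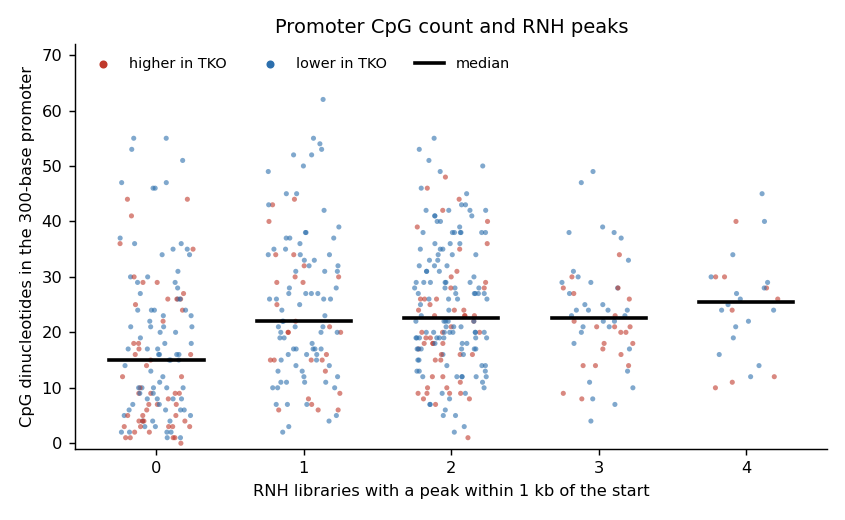
Each point is 1 of the 514 member promoters, by the number of RNH libraries with a peak within 1 kb of the RefSeq start and the number of CG dinucleotides in 300 bases, in red for higher and blue for lower members. Black lines are medians, 15 with no library and 25.5 with all 4.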

How the data were processed

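The authors compared cheRNA between genotypes and deposited 1 log2 fold change per transcript, with assembly names that carry a gene and a class prefix. The authors deposited 1 peak list per MapR library, giving each peak a fold enrichment (a ratio), a -log10 p-value, a -log10 q-value and a score, which is 10 times the -log10 q-value cut to a whole number for nearly all peaks. The submitters' processing notes name mm10, MACS2, DESeq2, TopHat2, BWA, bedtools and SAMtools; their versions and settings, and the background used for peaks, are not given in the sources used. The other 20 samples were not analysed here.

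Members were found by name and width, matched to GENCODE M21 by gene name, and set against peaks by overlaps of at least 1 bp with Python 3.11.15, pandas 2.3.3 and pysam 0.24.0; sequences are from RefSeq, GRCm38.p6. Peaks over a control peak of either genotype were left out. Peak counting was tested on simulated data. A two-sided exact permutation test over libraries, read at 0.05, compared WT with TKO. All 514 promoters used equalled the genome at their coordinates.

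The members and the gene lists were chosen with earlier results of these data known. By rule the text names the 10 highest and 10 lowest members, the 5 widest per direction, the 2 largest changes per list and direction, the 5 largest peak differences per direction, the 3 on each side of 20 kb and the 5 with most other transcripts. Some items that this rule would name are not reported here. Further list members, the genes of the chromosome 6 segment, those with long 3′ extensions, Klf5 with Klf12 and Foxn4 for their peaks, the stretch of chromosome 14, Socs2, Ccdc141 and the promoters shown were chosen after their values were seen. Alternatives were a stricter peak threshold, equal list lengths, control peaks kept, summits, other widths, other chromosome sets, a replicate block and leaving out each library.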

Additional observations from a re-analysis of the deposited data

How the results depend on the processing

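The share of members higher in TKO cells was 39.1% at a width of 10 kb or more and 21.9% at 50 kb or more. It was 45.7% at an absolute log2 of 2 or more. Without chromosome 6 from 50 to 100 Mb, a setting added after the data had been seen, it was 37.3%. The other 4 settings gave 32.5% to 35.2%, beside 33.7%, but share most of their members with the main set. The difference in RNH share kept its sign in all 13 alternatives for higher members (0.012 with -log10 q of at least 5 to 0.54, with the genotypes overlapping in 4 of 8 settings that keep all libraries: that threshold, equal list lengths, control peaks kept and 50 kb), for lower members (-1.26 to -0.36, overlapping in 1 of 8, with chromosomes 9 and 11 kept in) and for the log2 ratio (0.58 to 1.25). These alternatives reuse the same 4 libraries, and the replicate block leaves each difference unchanged by construction, so they are not separate support. Leaving out 1 library gave 0.070 to 0.54, -1.10 to -0.36 and 0.58 to 1.25. For starts with a peak, leaving out 1 library gave -14.2 to 30.2 points for higher and -26.9 to 28.4 for lower members, a range set by the unequal list lengths of the replicates, which says nothing of stability. For lower members it also reversed with -log10 q of at least 5 (-4.90) and with equal list lengths (-4.39); the cause was not tested. The chromosome 6 segment differed by -1.27 to -0.86 points in its 8 alternatives. With a replicate block the differences stayed at 0.30 and -0.73 points and 0.92 on the log2 scale, at an exact p of 0.50, the smallest for 2 pairs; for starts they stayed at 8.00 and 0.71 points, at an exact p of 0.50 and 1. Equal numbers are not stated to pair libraries. Over 8921 genes, the differences between replicates 1 and 2 correlated at 0.38 between the genotypes. Replicate 1 lists were longer in both genotypes, so this value cannot decide whether libraries were paired. List length limits what a single member shows, and depth is unknown.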

Other observations

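Over 10 Mb bins with at least 3 members, the percentage of higher members was set beside the log2 ratio of TKO to WT shares of RNH peaks outside members, as a description. Pearson's r was 0.34 for replicate 1 and 0.26 for replicate 2 over 118 bins, 0.19 and 0.18 over 105 bins without chromosome 6, and 0.14 and 0.15 over 99 bins without chromosomes 6 and 14. Spearman's rho was 0.24 and 0.28, 0.087 and 0.20, and 0.044 and 0.16 in the same order. The weak relation therefore rests in part on those chromosomes. Bins share their libraries, and neighbouring bins are not independent.

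The median width was 33.2 kb for the 128 members with no RNH peak in any library. It was 50.8, 56.0, 79.0 and 53.2 kb for members with a peak in 1, 2, 3 and 4 libraries, so it did not rise throughout.

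Along chromosome 5 a run of 7 higher members reached from Man2b2 to Lgi2 and another of 7 from Tmem132c to Radil-Papolb, with medians of 1.46 and 1.12 in the authors' deposited table.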
